A study of Mus musculus with 3 samples.

Results

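Immature basal vomeronasal sensory neurons (VSNs) were described in 3 single-cell RNA-sequencing libraries of the mouse vomeronasal organ (VNO). They were chosen by fixed limits on a few marker genes: at least 2 unique molecular identifiers (UMIs, each standing for 1 captured transcript) of Gap43, at least 5 of Stmn2 and Tubb2b together, Gap43 and Stmn2 together above 0.1% of the cell's UMIs, at most 1 UMI each of Neurod1 and Meis2, and at least 2 UMIs of Gnao1 that outnumbered those of Gnai2. Of 15711 barcodes that passed the quality limits, 133 met these limits, 86 in the P10 control library, 38 in the P10 mutant library and 9 in the 3-month mutant library. These cells are called members below.

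Each library came from whole VNOs of male mice on a C57 BL/6J 129P2/OlaHsd mixed background, and there was 1 library for each group. The control at postnatal day 10 (P10) was OMPCre heterozygous, and the mutants, at P10 and at 3 months (P90 in the title), were OMPCreR26AP2e double heterozygous. All groups therefore carried OMPCre, in which Cre recombinase is made by cells that express Omp, the gene of olfactory marker protein. The mutants also carried R26AP2e, an allele at Rosa26 that makes the transcription factor AP-2ε, the product of Tfap2e, and reads of the transgene and of the endogenous gene cannot be told apart in these counts. The cells were dissociated, frozen and thawed before capture. The number of animals in each library is not given in the labels. With 1 library a group no test between groups was possible, genotype cannot be told apart from library at P10, and age cannot be told apart from library in the mutants. All intervals below are 95% intervals that cover counting error only.

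VSNs are renewed from progenitors at the edges of the sensory epithelium. A young VSN extends its axon, makes growth proteins such as GAP-43, and becomes either an apical neuron, with the G protein Gαi2 (Gnai2), the transcription factor Meis2 and receptors of the V1R family, or a basal neuron, with Gαo (Gnao1), AP-2ε and receptors of the V2R family. Omp is switched on as the neuron matures. Most basal neurons settle on 1 V2R gene and add a co-receptor of family C, such as Vmn2r1.

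The libraries held 8202, 8864 and 10293 barcodes with totals of 83870584, 80760046 and 70074800 UMIs in the P10 control, the P10 mutant and the 3-month mutant. The limits on genes and mitochondrial UMIs kept 4795, 3956 and 6960 barcodes. Members had a median of 14786.5, 16086 and 17954 UMIs in that order and together held 1399767, 627878 and 175112 UMIs, so that values from the 9 cells at 3 months are the least precise. Any pair of libraries shared 21 to 30 barcodes and no member was shared. Free RNA was read from immune cells, which should lack neuronal transcripts, and their levels are given where they bear on a value.

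Among VSNs called basal or apical by these limits, members made up 27.5% (interval 22.6 to 32.8) of 313 cells in the P10 control. The share was 25.7% (18.9 to 33.5) of 148 cells in the P10 mutant and 23.7% (11.4 to 40.2) of 38 cells in the 3-month mutant. The intervals of these shares overlapped. The order at P10 turned when cells with 5 or more UMIs of other cell types' markers were left out. The shares were then 14.3% for the control (2 of 14 cells) and 36.4% for the mutant (8 of 22 cells). Few members were left under that limit. Its markers include those of other peripheral neurons, which were seen in 69 of the 86 control members. With cells thinned to 2000 UMIs the share was 17.2% in the control and 9.09% at 3 months. As a share of all kept barcodes, members were 1.79%, 0.961% and 0.129%, a quantity that also moves with how many other cells each suspension held.

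The label was checked against markers that the limits did not use. Tfap2e, Robo2 (a receptor that guides basal axons) or Bcl11b (a transcription factor of the basal choice) was detected in 86 of 86 members of the P10 control, in 36 of 38 of the P10 mutant and in 8 of 9 of the 3-month mutant. Tfap2e alone was seen in 66, 35 and 7 members and Robo2 in 77, 34 and 6. Gng8, the G protein γ subunit of VSNs, was seen in 82, 37 and 8 members. Part of this check could hardly fail, because immature apical cells of the P10 libraries also held Bcl11b (79.3% and 79.1% of cells) and Gng8 (97.8% and 93.6%). Robo2 was seen in 89.5% of members of both P10 libraries against 33.0% and 40.0% of those apical cells. Tfap2e was seen in 76.7% of members against 7.49% of apical cells in the control, and in 92.1% against 59.1% in the P10 mutant. At 3 months Bcl11b was seen in 55.6% of members against 72.4% of apical cells. Robo2 was seen there in 66.7% against 41.4% and Tfap2e in 77.8% against 44.8%. The 6 control members with olfactory genes described next are among the 86, and the 3 at 3 months are among the 8.

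The members were less uniform than the label. Gnal and Cnga2, which encode the transduction machinery of main olfactory neurons, together reached at least 2 UMIs in 6 control members, 0 P10 mutant members and 3 of the 9 members at 3 months. Of these cells, 5 in the control and 3 at 3 months held fewer than 5 UMIs of any vomeronasal receptor. They are kept in the values below, and values without them are given where they differ. In the P10 control, 1 member held 3058 UMIs of fibroblast and bone genes and another held 158 UMIs of neutrophil genes. In the P10 mutant, 1 shallow member had 1002 UMIs in all and another had 512. The limits on Gnao1 and Gnai2 had few cells near them. Just inside, 3 control members had 1 Gnao1 UMI more than Gnai2 UMIs, and 2 of those held Tfap2e, with 7 UMIs in all. Just outside, with equal counts of Gnao1 and Gnai2, lay 2 control cells with 2 Tfap2e UMIs and 3 P10 mutant cells with 15.

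The 9 members at 3 months were examined cell by cell. The deepest, with 48129 UMIs, held 31 Gnao1 UMIs but also 25 of Gnai2 and 168 of Prph, which encodes peripherin, a filament protein of peripheral neurons, and no UMI of Tfap2e, Robo2, Bcl11b or any V2R or V1R gene. The next 3 cells by depth each held 1 leading V2R gene, with 31 UMIs of Vmn2r75, 134 of Vmn2r122 and 205 of Vmn2r49. Cells 5, 6 and 7 held 16, 18 and 7 Gnal UMIs and 3, 2 and 3 Cnga2 UMIs, with no V2R gene and no Cnpy1, and 0, 5 and 10 Tfap2e UMIs. Cell 8 held 11 UMIs of Vmn2r1 and 9 of Tfap2e. Cell 9 held 12 UMIs of Vmn2r111 beside 118 of the neutrophil gene S100a8. Thus 5 of the 9 held a V2R gene or Vmn2r1 together with Tfap2e, and the label was not borne out for cell 1 or for cells 5 to 7.

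**Figure D1:**
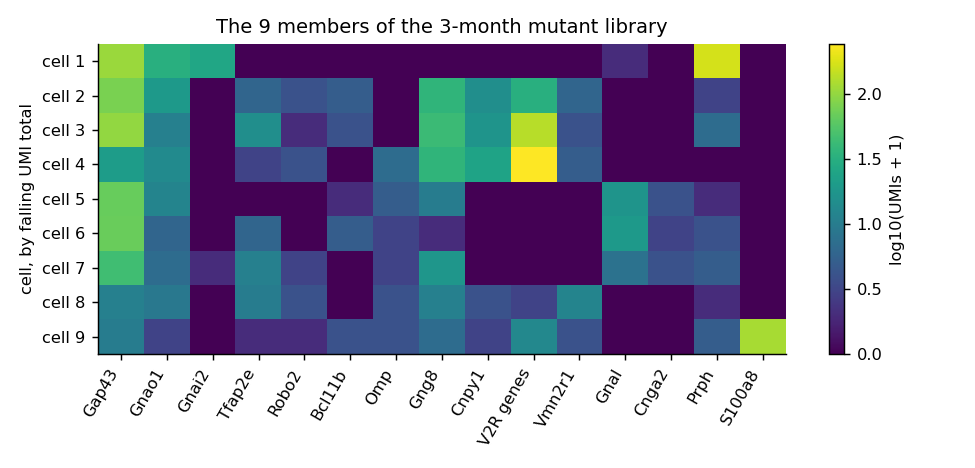
UMI counts of 15 genes or gene sums (columns) in each of the 9 members of the 3-month mutant library (rows, by falling UMI total), coloured by log10(UMIs + 1). Cell 1 has 168 Prph UMIs and no Tfap2e, cells 5 to 7 have Gnal and Cnga2 without V2R genes, and cells 2, 3, 4, 8 and 9 have V2R genes (family C left out of that column) and Vmn2r1.

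Tfap2e, the gene of the mutant allele, ranked second among the genes higher in the P10 mutant, after 1700012B09Rik. The gene lies on the minus strand at chr4:126716006-126736240 (mm10, protein coding). Per member, the lowest, median and highest Tfap2e counts were 0, 3 and 24 UMIs for the P10 control, 0, 5 and 43 for the mutant of that age and 0, 5 and 14 for the 3-month mutant, so the cells of all libraries overlapped. Pooled over members, Tfap2e stood at 209 CPM (UMIs of the gene per 1000000 UMIs of the pooled cells) for the P10 control, with an interval of 185 to 234. The levels were 524 CPM (469 to 584) for the mutant of that age and 263 CPM (192 to 350) for the 3-month mutant. The P10 mutant level was 2.51 times the control level (2.14 to 2.95), or 2.29 times (1.95 to 2.69) without the olfactory-marker cells. The ratio was 3.91 when barcodes above 5% mitochondrial UMIs were left out. The 3-month mutant level was 0.501 times that of the P10 mutant (0.360 to 0.684), and 0.689 times without the deepest cell of each library. The values for the 3-month mutant rest on 46 UMIs. Its pool includes cell 1 and cells 5 to 7, for which the label was not borne out.

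The difference at P10 lay mostly in members that had begun to express Omp. An Omp UMI was found in 31 of 86 control members, 17 of 38 P10 mutant members and 6 of 9 members at 3 months. In members without an Omp UMI, Tfap2e stood at 376 CPM (303 to 461) for the P10 mutant against 288 CPM (251 to 330) for the control. The ratio was 1.30 (1.01 to 1.67), or 1.28 (0.993 to 1.64) without the olfactory-marker cells. In members with an Omp UMI it stood at 619 CPM (543 to 703) for the P10 mutant against 117 CPM (92.0 to 146) for the control. The ratio was 5.30 (4.08 to 6.96), or 4.39 (3.37 to 5.76) without those cells. Cell by cell, the Omp-containing members ranged from 0 to 437 CPM with a median of 114 in the control and from 110 to 1354 CPM with a median of 496 in the P10 mutant. All 17 of the latter held Tfap2e, against 23 of the 31 in the control, and the 2 ranges overlapped.

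Within a library, the step from members without to members with an Omp UMI therefore ran in opposite directions in the control and the P10 mutant. Tfap2e in Omp-containing members was 0.405 times that of the others in the control (0.308 to 0.528) and 0.482 times without the olfactory-marker cells (0.366 to 0.629). It was 1.65 times in the P10 mutant (1.29 to 2.12) and 1.57 times in the 3-month mutant (0.840 to 2.98). The 3 members at 3 months without an Omp UMI included cell 1, with 48129 UMIs and no Tfap2e. The others stood at 212 and 694 CPM, against 324 CPM pooled over Omp-containing members. The direction at 3 months thus depended on cell 1, for which the label was not borne out. The difference between libraries was not tested. Members with an Omp UMI were also deeper, with a median of 21295 against 12768 UMIs in the control and 22323 against 13134 in the P10 mutant, and a cell is more likely to show an Omp UMI when it is sequenced deeper.

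**Figure D2:**
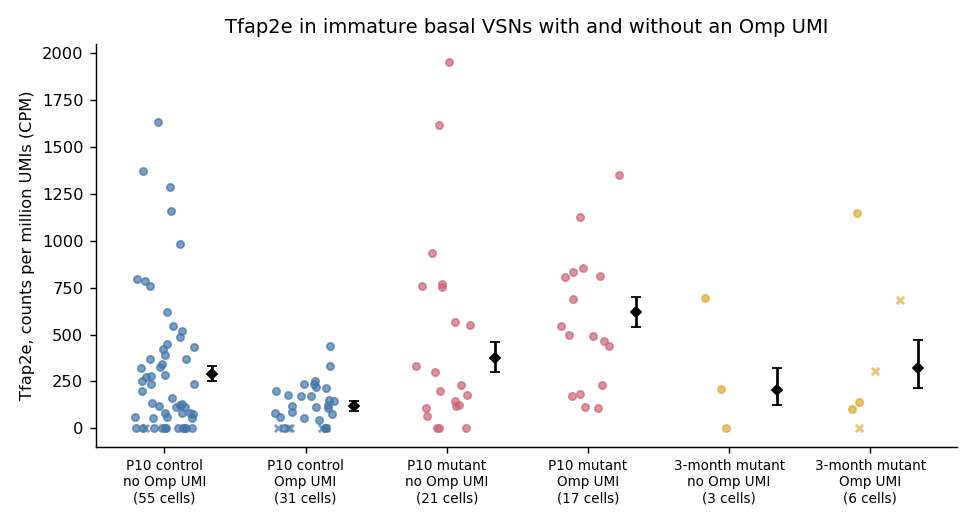
Tfap2e in each member, in CPM of the cell's UMIs (y axis), for members without and with an Omp UMI in each library (x axis). Points are cells (crosses are olfactory-marker cells), and diamonds are the pooled levels with 95% Poisson intervals: 117 CPM in Omp-containing control members against 619 CPM in those of the P10 mutant.

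The level of Tfap2e outside neurons was also read. Tfap2e in immune cells stood at 0.320 CPM for the control library, 30.0 CPM for the mutant library at P10 and 15.4 CPM for that at 3 months. Other neuronal genes in the same immune cells were not higher in this way, with Robo2 at 2.24 CPM in the control and 1.47 CPM in the P10 mutant and Stmn2 at 10.7 and 5.87 CPM. Whether the Tfap2e UMIs of immune cells were free RNA or made by these cells was not tested. With every cell thinned to 2000 UMIs, Tfap2e was seen in 32.6% of members and 0.177% of immune cells in the control, in 50% and 3.95% in the P10 mutant and in 33.3% and 2.66% in the 3-month mutant. Before thinning these shares were 76.7% and 0.331%, 92.1% and 12.8%, and 77.8% and 8.01%, at median depths of 14786.5 and 7366, 16086 and 6544, and 17954 and 5475 UMIs. Members stood above the immune cells in every library. Mature V2R neurons were taken as cells outside the members with at least 2 Omp UMIs and at least 5 receptor UMIs. At least 80% of those receptor UMIs came from V2R genes. Tfap2e in them stood at 119, 355 and 209 CPM, from 14, 12 and 31 cells.

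The other basal markers differed less than Tfap2e at P10, and the interval of Robo2 lay above 1. Robo2 stood at 240 CPM for the P10 mutant against 184 CPM for the control (ratio 1.30, 1.06 to 1.60). Bcl11b stood at 202 and 217 CPM, a ratio of 1.07 (0.867 to 1.32). Nrp2, which encodes the semaphorin receptor of apical axons, stood at 173 and 108 CPM, a ratio of 0.626 (0.471 to 0.823). At 3 months Robo2 was at 74.2 CPM and Bcl11b at 85.7 CPM, from 13 and 15 UMIs. These were 0.309 (0.161 to 0.544) and 0.395 (0.215 to 0.676) times the P10 mutant. That pool includes cell 1 and cells 5 to 7, for which the label was not borne out. Their totals were 48129, 17954, 16429 and 14632 of the pool's 175112 UMIs. They held 0, 0, 0 and 2 Robo2 UMIs and 0, 1, 4 and 0 Bcl11b UMIs.

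Across all genes, few differed by 2-fold between genotypes. Of 5739 genes with at least 50 UMIs over both P10 groups, 44 (0.767%) were at least 2-fold higher in the P10 mutant and 87 (1.52%) at least 2-fold lower, and the median log2 ratio was 0.05. Without the olfactory-marker cells, 47 were higher and 51 lower of 5475. These are counts past a fixed fold, not tested calls. Apart from Tfap2e, the 12 leading higher genes were 1700012B09Rik, Dcdc2a, AC149090.1, Gm42418, Klhl29, Spint1, Tapbp, Aopep, Bhlhe40, Slx4ip and Stbd1. 1700012B09Rik (chr9:14756587-14771030, minus strand) was seen in 34 control members at 70.7 CPM and in 21 P10 mutant members at 204 CPM, a ratio of 2.88 (2.20 to 3.79). Dcdc2a, which encodes a doublecortin-domain protein, stood at 29.3 and 87.6 CPM, a ratio of 2.99 (1.96 to 4.60), from 13 and 8 cells. Spint1, a serine protease inhibitor, stood at 15.7 and 46.2 CPM, a ratio of 2.94 (1.63 to 5.37), and immune cells held 21.8 and 25.9 CPM of it. Stbd1, a glycogen-binding protein, stood at 715 and 1134 CPM, a ratio of 1.59 (1.44 to 1.75). Its ratio was 0.763 when cells with 5 or more UMIs of other cell types' markers were left out, which left 2 control and 8 P10 mutant members.

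Of the 12 leading lower genes, 11 stood at a higher level in immune cells than in members of the P10 control, against 5 of the 12 higher genes. Obp2a and Lcn3, secreted lipocalins of nasal glands, were 0.176 times (0.106 to 0.278) and 0.211 times (0.120 to 0.347) the control level, at 31.9 against 181 CPM and 27.1 against 129 CPM. Immune cells held 64.9 against 252 CPM of Obp2a and 236 against 359 CPM of Lcn3. Wfdc18 was at 0.356 times (0.240 to 0.513), with 497 against 885 CPM in immune cells, and the pseudogene Ftl1-ps1 at 0.136 times (0.104 to 0.175), with 1375 against 2198 CPM. Free RNA and expression by the immune cells were not told apart, and their part in these differences was not tested. Hap1, which encodes a trafficking protein, was the exception. It stood at 7.96 against 42.9 CPM (ratio 0.186, 0.0582 to 0.458) and at 1.44 to 2.47 CPM in immune cells of all libraries. Calr, the calcium-binding chaperone calreticulin, stood at 131 against 290 CPM (0.450, 0.351 to 0.572), or 0.510 times without the olfactory-marker cells. Mt1, Wfdc2, Ldha, Cmip, S100a6 and Tspo completed the 12, with ratios of 0.183 to 0.314.

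The promoters of the higher genes were searched for the AP-2 motif GCCNNNGGC, which reads the same on both strands. Windows of 250 bases before to 50 bases after a gene's start came from RefSeq on GRCm38.p6. Of the 12 higher genes, Tfap2e included, 9 had such a window and 4 of these held the motif (1700012B09Rik, Klhl29, Slx4ip and Spint1). Of the 12 lower genes, 10 had a window and 2 held the motif (Ldha and Wfdc2). Over all 27025 genes with a window, 18.5% held it. A match is a description of the letters and does not show that AP-2ε binds there. The window of Tfap2e itself is shown because the mutants carry an allele for its product, and those of 1700012B09Rik and Spint1 because they hold the motif. They lie at chr4:126736220-126736519 (minus strand), chr9:14770981-14771280 (minus strand) and chr2:119237110-119237409 (plus strand). They are written 5′ to 3′ with the motif in capitals, and Tfap2e has no copy in its window. The first copy starts at base -205 from the start of 1700012B09Rik, which has 2 copies, and at base -47 from the start of Spint1, which has 1.

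Tfap2e: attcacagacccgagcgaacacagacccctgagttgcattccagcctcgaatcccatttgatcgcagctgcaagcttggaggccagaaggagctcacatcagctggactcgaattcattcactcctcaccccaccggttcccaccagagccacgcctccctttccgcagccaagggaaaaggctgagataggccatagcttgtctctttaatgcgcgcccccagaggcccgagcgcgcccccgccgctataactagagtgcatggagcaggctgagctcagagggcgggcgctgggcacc
1700012B09Rik: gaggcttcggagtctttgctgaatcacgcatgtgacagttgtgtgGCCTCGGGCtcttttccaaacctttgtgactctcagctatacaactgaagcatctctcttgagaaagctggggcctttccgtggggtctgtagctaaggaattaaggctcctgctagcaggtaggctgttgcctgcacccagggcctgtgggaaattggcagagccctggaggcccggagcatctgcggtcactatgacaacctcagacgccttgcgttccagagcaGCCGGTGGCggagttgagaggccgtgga
Spint1: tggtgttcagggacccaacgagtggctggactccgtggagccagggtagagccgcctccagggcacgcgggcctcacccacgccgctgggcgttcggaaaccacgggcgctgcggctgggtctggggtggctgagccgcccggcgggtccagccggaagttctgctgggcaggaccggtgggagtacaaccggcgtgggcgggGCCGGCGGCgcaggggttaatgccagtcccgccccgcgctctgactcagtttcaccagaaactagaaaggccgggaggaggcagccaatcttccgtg

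By function, the P10 genotypes differed little. Of 11 neuronal transcription factors with enough UMIs, 0 were past 2-fold in either direction (median log2 ratio 0.12), and of 22 neurite growth and tubulin genes also 0 (median 0.01). Sox11, a factor of young neurons, stood at 832 and 903 CPM, Ebf1 at 2111 and 2137 CPM and Lhx2 at 677 and 643 CPM. Of 14 axon guidance and adhesion genes 0 were past 2-fold (median 0.31), the nearest being Kirrel2, an adhesion molecule of sensory axons, at 1.98 times (1.35 to 2.89), or 2.28 times (1.52 to 3.42) without the olfactory-marker cells. Of 16 genes for chaperones and the unfolded protein response of the endoplasmic reticulum (ER), 0 were higher and 1, Calr, was lower (median -0.09). Of 4 Notch pathway genes 0 were past 2-fold (median -0.13). Of 8 immediate early and heat shock genes, 0 were higher and 1, Atf3, was lower (0.469, 0.337 to 0.640; median -0.45). Of 3 progenitor and precursor factors 0 were past 2-fold (median -0.39), and 1 cell cycle gene was measured (0.10).

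Among 9 maturation and presynapse genes, 2 were at least 2-fold lower in the P10 mutant, Gng13 and Stoml3, with a median of 0.05 over the group. Gng13, the γ subunit used in main olfactory neurons, had 412 UMIs in control members and 13 in the P10 mutant. Stoml3, a stomatin-like protein of olfactory cilia, had 380 and 0. Without the olfactory-marker cells, Gng13 had 48 and 13 UMIs and Stoml3 had 1 and 0, so that most of their UMIs lay in 6 control cells.

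H2-Mv genes encode class I proteins of basal VSNs that pair with the light chain B2m. Of 4 measured genes of this group, 3 were at least 2-fold higher in the P10 mutant and 0 lower (median 1.05), where 0.767% of all genes were higher. Without the olfactory-marker cells 1 of the 4 was past 2-fold (median 0.93), as was 1 in members with an Omp UMI. B2m stood at 154 against 72.2 CPM (2.14, 1.60 to 2.86), or 1.99 times without the olfactory-marker cells. All 53 UMIs of H2-M10.1 in the P10 mutant came from 1 cell, against 2 UMIs in the control. The 46 UMIs of H2-M10.6 in the P10 mutant came from 2 cells. Of 4 measured family C receptors, 2 were at least 2-fold higher and 0 lower (median 0.93). This was 1 of 4 without the olfactory-marker cells and 0 of 4 in members with an Omp UMI. The 2 genes rest on few cells, since in the P10 mutant Vmn2r3 was seen in 2 members, 1 with 67.7% of its UMIs, and Vmn2r7 in 3. Vmn2r1 stood at 190 against 106 CPM, 1.78 times (1.39 to 2.28). Near-identical copies of H2-Mv and V2R genes may share reads, so values of single members of these families are uncertain.

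**Figure D3:**
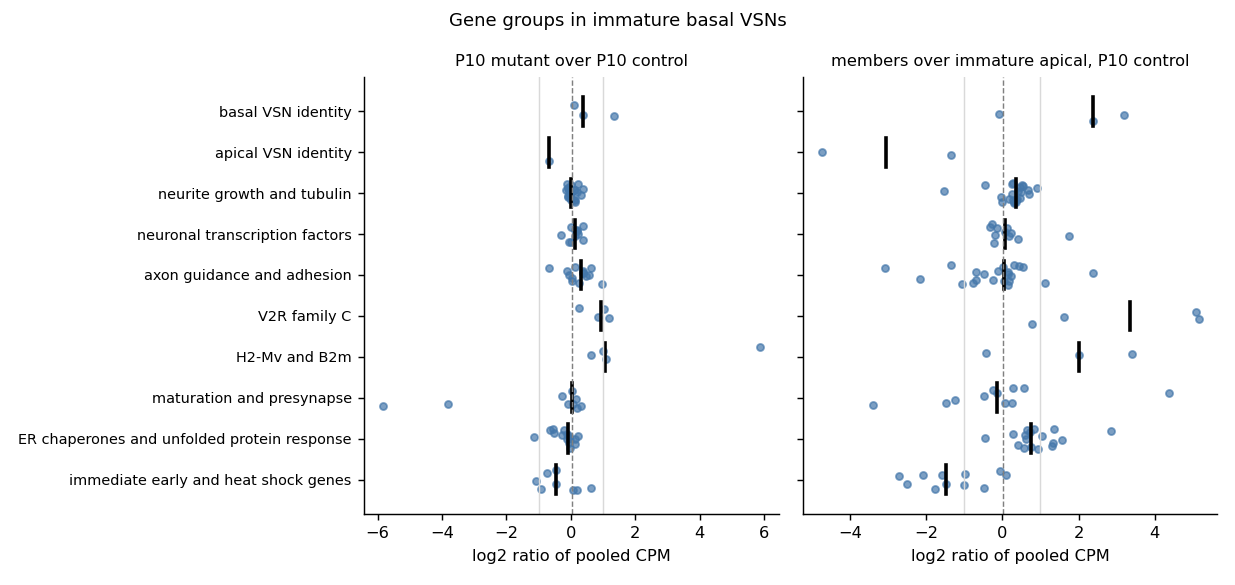
Each point is a measured gene, placed by its log2 ratio of pooled CPM (x axis) in the P10 mutant over the P10 control (left) and in members over immature apical cells of the P10 control (right), with the gene groups on the y axis. Black bars are group medians, the grey lines are 2-fold and the dashed line is the median of all measured genes (0.05 left, 0.01 right). On the left most medians lie near 0 (neurite growth 0.01). On the right the ER group lies at 0.75 and the immediate early group at -1.48.

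A list of genes that an earlier description of these libraries gave for mutant mature V1R neurons was not an independent choice and is given as values only. Of 4 measured, 0 were past 2-fold at P10 (median 0.32). Gm36028 (chr16:37850913-37861146, minus strand) stood at 1045 CPM for the P10 mutant against 754 CPM for the control, 1.38 times (1.25 to 1.53). Cnpy1, which encodes an ER protein of the canopy family (chr5:28200819-28245806, minus strand), stood at 409 and 519 CPM, 1.27 times (1.11 to 1.46).

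The choice of receptor was read in every member. V2R genes outside family C together stood at 3352, 4620 and 2404 CPM in members of the P10 control, the P10 mutant and the 3-month mutant, and at 3.84 to 6.36 CPM in immune cells. A cell was assigned a receptor when it held at least 5 UMIs of V2R genes outside family C or at least 5 of V1R genes. Family C UMIs did not enter this assignment. In the control, 35 of 86 members (40.7%, 30.2 to 51.8) drew at least 80% of their V2R UMIs outside family C from 1 gene. A further 11 were spread over several V2R genes, 34 held too few UMIs of either kind, 5 held V1R UMIs and 1 held both families. In the P10 mutant the counts were 13 of 38 (34.2%, 19.6 to 51.4) with 1 V2R gene, 4 with several, 20 with too few and 1 with a V1R gene. At 3 months 4 of 9 (44.4%, 13.7 to 78.8) had 1 V2R gene and 5 had too few. The intervals of the shares overlapped.

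The cells with 1 V2R gene seldom shared it, since 28 genes led in the 35 control cells, 11 in the 13 P10 mutant cells and 4 in the 4 at 3 months. In those cells the V2R total ran from 6 to 533 UMIs in the control, with a median of 70, and from 5 to 809 in the P10 mutant, with a median of 140. The highest single counts were 808 UMIs of Vmn2r88 and 710 of Vmn2r101 in the P10 mutant and 533 of Vmn2r89 and 498 of Vmn2r88 in the control. Where V2R transcripts were plentiful, 1 gene led. At 50 or more V2R UMIs, the leading gene took at least 80% in 22 of 24 control cells and 8 of 10 P10 mutant cells. At the other end, a control cell held 16 UMIs spread over 9 V2R genes and a P10 mutant cell held 8 UMIs over 8 genes.

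**Figure D4:**
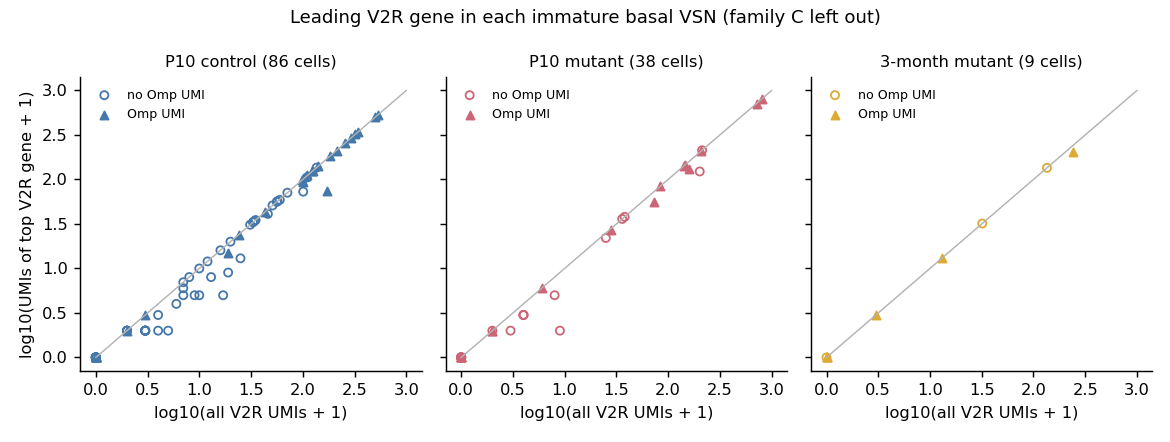
For each member, log10(UMIs of its leading V2R gene + 1) on the y axis against log10(all V2R UMIs + 1) on the x axis, family C left out, with triangles for cells with an Omp UMI. Cells on the grey line drew all V2R UMIs from 1 gene; at 50 or more V2R UMIs the leading gene took at least 80% in 22 of 24, 8 of 10 and 2 of 2 cells of the P10 control, P10 mutant and 3-month mutant.

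Other genes were set against receptor choice. Of cells with at least 50 V2R UMIs, 16 of 24 in the control and 8 of 10 in the P10 mutant held an Omp UMI. An Omp UMI was found in 15 of 62 and 9 of 28 of the other members. Deeper cells pass both limits more easily, and these shares were not compared at equal depth. The pooled Omp level was 188 CPM in control members without an assigned receptor and 117 CPM in those with V2R genes. Of the former, 5 were olfactory-marker cells, with 2, 34, 6, 35 and 6 Omp UMIs. They held most of that group's Omp UMIs, so the order in the control rested on them. In the P10 mutant the Omp levels were 94.2 and 141 CPM. Gap43, which the limits used, stood at 1115 and 1487 CPM in the control and 1010 and 1569 CPM in the P10 mutant. Sox11 stood at 1036 CPM in control members without an assigned receptor and at 684 CPM in those with V2R genes, and at 1375 and 594 CPM in the P10 mutant. Tfap2e stood at 265 CPM (222 to 313) without and 157 CPM (131 to 187) with V2R genes in the control, and at 561 CPM (475 to 659) and 455 CPM (387 to 533) in the P10 mutant. These groups of cells come from the same libraries and were not tested.

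Family C receptors were counted apart at 2 or more UMIs. In the control, 27 members held Vmn2r1 alone, 6 held Vmn2r2 to Vmn2r7 alone and 2 held both. In the P10 mutant these counts were 15, 2 and 2, and at 3 months 3, 0 and 2. Members with neither numbered 51, 19 and 4. At least 5 V1R UMIs were found in 6 control members and 1 P10 mutant member. They were led by 203 and 165 UMIs of Vmn1r55 and 196 of Vmn1r66 in 3 control cells, the other 3 held 43, 21 and 8 V1R UMIs, and the P10 mutant cell held 248 of Vmn1r68, which was 94.7% of that library's V1R UMIs in members. That cell also held 25 Tfap2e and 11 Omp UMIs.

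Members were then set against immature apical VSNs of the same library, which met the same growth and Neurod1 limits with Gnai2 at 2 or more UMIs and above Gnao1 (227, 110 and 29 cells). Because Gnao1, Gnai2 and Meis2 sorted the cells, this contrast is a description. In all 3 libraries, 15 of 1927 measured genes (0.778%) were at least 2-fold higher in members and 29 (1.50%) at least 2-fold lower. Over both P10 libraries alone, 94 of 7549 (1.25%) were higher and 548 (7.26%) lower. Some apical cells carried epithelial transcripts. When cells with over 5 UMIs of the epithelial genes Cbr2 and Cldn4 were left out (43, 33 and 3 apical cells), 14 genes were higher and 10 lower in all libraries, of which 11 and 7 were among the 15 and 29 above. Over both P10 libraries the counts were 59 and 88 of 5710.

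Of the 15 genes higher in all libraries, 4 were on the list of ER chaperones and the unfolded protein response: Hspa5, Hsp90b1, Pdia6 and Sdf2l1. Dnajb11, Dnajc3, Manf, Spcs3, Calr4 and Cnpy1 were also among the 15. Sdf2l1, an ER co-chaperone, stood at 604 against 84.6 CPM in the P10 control (ratio 7.14, 6.31 to 8.09), 499 against 100 CPM in the P10 mutant (4.96, 4.19 to 5.89) and 423 against 108 CPM at 3 months (3.90, 2.64 to 5.85). Hspa5, the chaperone BiP, was 2.95, 2.56 and 2.62 times the apical level. The other 5 were Apmap, Dut, Gm36028, Homer2 (a postsynaptic scaffold protein) and Tppp3 (a tubulin-binding protein), with Homer2 at 2.94, 4.10 and 2.46 times. Tppp3 stood at 146 against 25.4 CPM in the P10 control, 178 against 18.6 CPM in the P10 mutant and 371 against 36.1 CPM at 3 months, where 1 cell held 89.2% of the Tppp3 UMIs. With the epithelial limit, Sdf2l1 stood at 6.81, 3.93 and 3.79 times and Hspa5 at 3.06, 2.29 and 2.55 times. Hsp90b1 then stood at 2.60, 2.11 and 1.86 times and Spcs3, a signal peptidase subunit, at 1.99, 1.46 and 2.07 times, each below 2-fold in at least 1 library.

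As a group, 6 of 17 ER chaperone and unfolded protein response genes were at least 2-fold higher in members in the P10 control (2.50% of all measured genes were), 5 of 17 in the P10 mutant (3.87%) and 9 of 12 at 3 months (7.71%). The medians were 0.75, 0.54 and 1.29 on the log2 scale, beside 0.01, 0.09 and 0.03 for all genes. Calr went the other way in the P10 mutant, at 0.402 times (0.316 to 0.505). Immediate early and heat shock genes were at least 2-fold lower for 7 of 11, 9 of 11 and 4 of 8 genes in the 3 libraries, where 9.61%, 11.8% and 7.04% of all genes were, with medians of -1.48, -2.22 and -0.78. In the P10 control that median became 0.06 with the epithelial limit. Atf3, Fosb and Ier2 were the genes of this group lower in all libraries. With the limit, their ratios at 3 months went from 0.438, 0.427 and 0.432 to 3.49, 0.948 and 2.10. In the P10 mutant they went from 0.0759, 0.141 and 0.273 to 0.428, 0.537 and 0.605.

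Shisa8, which encodes a membrane protein, led the genes named as higher in members over both P10 libraries. It stood at 142 against 3.69 CPM in the control (38.6, 23.2 to 68.8) and 123 against 4.45 CPM in the P10 mutant (27.5, 14.6 to 57.4). Cnpy1 stood at 409 against 24.2 CPM in the control, 519 against 51.0 CPM in the P10 mutant and 331 against 43.8 CPM at 3 months. Robo2 was 5.23 and 6.91 times at P10 and 1.52 times at 3 months (0.688 to 3.24). Prrxl1, a homeobox gene (chr14:32599407-32649246, plus strand), was 7.26 and 6.59 times at P10. The genes named for both P10 libraries were chosen after the values of the 3 libraries were seen. Syt7, Tubb3, Scn9a, Ppib, Vdac3, Ivns1abp and Cntn4 led with Homer2 by the size rule over the 3 libraries, at 1.35 to 2.94 times in the P10 control.

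Tfap2e and Gm36028 separated members from apical cells less in the mutants. Tfap2e was 9.14 times the apical level in the control (7.25 to 11.6), 1.53 times in the P10 mutant (1.34 to 1.74) and 1.67 times at 3 months (1.11 to 2.49), where the apical cells stood at 22.8, 342 and 157 CPM. Gm36028 was 18.0, 4.73 and 3.04 times, with apical levels of 41.9, 221 and 193 CPM. Bcl11b was close in both cell types at P10, at 0.945 times (0.825 to 1.08) and 1.20 times (0.985 to 1.46).

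Genes lower in members included the apical axon receptor Nrp2, at 0.393, 0.335 and 0.195 times, and Car2, which encodes carbonic anhydrase II, at 0.121, 0.171 and 0.0886 times. Pcdh7, a protocadherin, was at 0.161, 0.0270 and 0.207 times. Crabp1, which binds retinoic acid, was at 0.172, 0.664 and 0.0421 times. Cnn3, Ier5, Socs2 and Aftph completed the 8. Over both P10 libraries, the leading lower genes included Cd74, Ednrb, Cbr2 and H2-Aa. Cbr2, used to set the epithelial limit, was at 0.0463 and 0.0297 times before and 0.823 and 0.985 times after it.

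Against mature V2R neurons, members held more of the growth genes. Members were chosen on Gap43, Stmn2 and Tubb2b and were left out of the mature cells, so this direction was partly set by the choice. Omp did not limit members, and some of them also held at least 2 Omp UMIs. Of the neurite growth and tubulin genes, 11 of 22 were at least 2-fold higher in members in the P10 control (8.49% of all genes were), 12 of 22 in the P10 mutant (9.43%) and 12 of 19 at 3 months (6.95%), with medians of 1.05, 1.33 and 1.52. Stmn1, a microtubule regulator, was 4.76, 5.14 and 11.2 times the mature level. Sox11 was 11.6 times the mature level (7.85 to 17.8) in the P10 control, and the P10 mutant ratio was 14.0 (9.20 to 22.2). Prrxl1 had 185 and 57 UMIs in P10 members, 0 in members at 3 months and 0 in mature V2R cells of all libraries. Bcl11b was 4.30, 2.85 and 1.48 times the mature level. Hspa5 was near the mature level, at 0.931, 0.936 and 0.915 times.

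Within members, cells with an Omp UMI were set against those without as a step of maturation. Of maturation and presynapse genes, Omp aside, 5 of 8 were at least 2-fold higher in Omp-containing members in the control (8.91% of all genes were), with a median of 1.13. In the P10 mutant 4 of these genes were measured, with a median of 0.78. Without the olfactory-marker cells, the control had 2 of 6 and a median of 0.87. Of neuronal transcription factors, 4 of 11 were at least 2-fold lower in the control (5.04% of all genes were) and 3 of 10 in the P10 mutant (6.34%), with medians of -0.72 and -0.85. Kirrel2 was 10.7 and 11.1 times higher, and B2m 4.97 and 11.8 times. Herpud1, an ER stress gene, stood at 799 against 251 CPM in the control and 770 against 216 CPM in the P10 mutant. Bcl11b was lower in Omp-containing members of both, at 0.486 and 0.552 times, and Tfap2e was lower in the control and higher in the P10 mutant.

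Between the mutant libraries, more genes differed, in a comparison that shares the P10 mutant library with that of the genotypes and rests on 9 cells at 3 months. Of 2920 measured genes, 134 (4.59%) were at least 2-fold higher at 3 months and 316 (10.8%) at least 2-fold lower, with a median log2 ratio of -0.10. Without the deepest cell of each library 79 were higher. The leading higher genes were Gm42418, Lars2 and AY036118, at 13.5, 15.4 and 5.72 times, and immune cells of the 3-month library held 39771, 1296 and 1212 CPM of them against 1606, 72.4 and 62.0 CPM at P10. Gland genes were also seen in all 9 cells, at 1582 CPM together against 31.9 CPM in P10 mutant members. A single cell held 186 of the 277 UMIs, and the level without it was 587 CPM. Immune cells held 2862 CPM at 3 months and 66.5 CPM in the P10 mutant. The part of free RNA in these differences was not tested. Ndufs8, Ttll7, Gng5 and Mpc1 were at 1.80 to 3.07 times.

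Transcription factors and growth genes were then compared by age, where 4 of the 9 cells at 3 months did not bear out the label. Of 11 neuronal transcription factors, 6 were at least 2-fold lower and 1 higher (median -1.00). The median was 0.10 in members with an Omp UMI, but of those 6 cells at 3 months, 3 were olfactory-marker cells. Over all members without the olfactory-marker cells, 7 of 10 factors were lower and 0 higher (median -1.35). Sox11 stood at 383 against 903 CPM (0.424, 0.324 to 0.547) and Nhlh2 at 274 against 780 CPM (0.351, 0.255 to 0.473). The long non-coding RNA Kcnq1ot1 stood at 160 against 956 CPM (0.167, 0.110 to 0.244) and Lmo4, a LIM-domain regulator, at 148 against 823 CPM (0.180, 0.117 to 0.267). Tex15, Foxo1, Bmp7, Dlx3 and Chst1 had 1 or 2 UMIs at 3 months against 69 to 200 in the P10 mutant. Of 22 neurite growth genes, 1 was higher (Elavl4, 2.05 times, with 54.7% of its UMIs at 3 months in 1 cell) and 1 lower (Marcksl1, 0.445 times), with a median of -0.28. Gap43, which chose the members and is not counted there, stood at 2.23 times (1.99 to 2.50) and Stmn3 at 1.47 times. Of 8 maturation and presynapse genes, 3 were higher and 0 lower (median 0.71), but without the olfactory-marker cells the median was -0.12 over 5 genes. Of 15 ER genes 1 was higher and 1 lower (median -0.18), of 10 axon guidance genes 0 and 3 (median -0.42), and of 8 immediate early genes 2 and 0 (median 0.44).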

How the data were processed

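Single-cell RNA was measured in 3 libraries of whole VNO, 1 for each group, made with 10x Genomics 3′ chemistry (v3.1). The deposited values are raw UMI counts of each gene in each barcode. The file headers name Cell Ranger 6.0.1 for the 3-month library and Cell Ranger 4.0.0 for the P10 libraries, and the submitters' processing notes name Cell Ranger 4.0.0, mm10, bcl2fastq and Seurat 3.2.3 for all 3. A difference in counting between versions cannot be told apart from age. Groups came from the sample labels, and 0 columns were unmapped.

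Barcodes with 200 to 9000 genes and at most 10% mitochondrial UMIs were kept, where the study's methods used 5%. Doublets were not removed, since no caller was run, and free RNA was not subtracted. The limits for members, the comparison cells, the gene lists and the rule for named genes were chosen with earlier results of these data known. Named genes were those of the lists and, by size, the 12 higher and 12 lower (genotype) or 8 and 8 (age, apical cells) whose interval bound nearest 1 was farthest from it, among genes with at least 50 UMIs, seen in at least 10% of cells and with no cell above 25% of the UMIs. Genes that chose the members, mitochondrial and receptor genes were left out of that ranking, and 2 genes are not reported here.

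Counts were summed over cells and divided by all UMIs of those cells to give CPM, with exact Poisson intervals. Ratios had conditional exact binomial intervals and shares exact Clopper-Pearson intervals, at the 95% level. A group of cells with 0 UMIs of a gene is given by its counts, without a fold. The scripts were tested on simulated counts. Python 3.11.15, numpy 2.4.6, scipy 1.17.1, pandas 2.3.3 and matplotlib 3.10.9 were used. Gene positions came from GENCODE M21 and promoter windows from RefSeq GRCm38.p6. Alternatives varied the limits on cells and genes, the depth, the scaling and the Omp state.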

Additional observations from a re-analysis of the deposited data

Results flagged for a closer look

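Tfap2e in members with an Omp UMI relative to members without one was 0.405 for the control library, 1.65 for the mutant library of the same age and 1.57 for the mutant at 3 months. It was picked out because the direction differed between the control and both mutant libraries. With 1 library a group the difference was not tested. The interval of the 3-month value (0.840 to 2.98) includes 1. Its direction also depended on cell 1, which held 48129 UMIs, no Tfap2e and no Omp, and for which the label was not borne out.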

How the results depend on the processing

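No paired analysis was possible because each group has 1 library. Under the alternatives, 87 of 126 main results, 574 of 674 group medians and 952 of 1145 named-gene ratios stayed within their own interval, their spread or 1.5 times their count, and the cause of each move was not tested.

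The member share was 14.3% (control) and 36.4% (P10 mutant) without cells with 5 or more UMIs of other types' markers, and 17.2% (control) and 9.09% (3-month) at 2000 UMIs a cell. That marker limit left 2 control members, 8 P10 mutant members and no member at 3 months. Comparisons with the 3-month library therefore have no value there, and other values under it rest on those few members. The P10 Tfap2e ratio was 3.91 at the 5% mitochondrial limit, 3.98 under the marker limit, 2.05 as a mean over cells, and 1.30 and 5.30 in members without and with Omp. The 3-month over P10 ratio was 0.689 without the deepest cells and 0.714 as a mean over cells.

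At P10, 95 genes were higher as a mean over cells, 407 at a minimum of 10 UMIs, 4 at 200 UMIs and 29 in Omp-containing members. Lower genes were 29 under the marker limit, 51 without the olfactory-marker cells or those with 50 marker UMIs, 687 at 10 UMIs and 16 at 200. By age, higher genes were 79 with Gnao1 at least 2 times Gnai2 or without the deepest cells, 882 and 16 at 10 and 200 UMIs, and 51 with Omp. Lower genes were 1235 and 40 at 10 and 200 UMIs, and 204 and 193 without and with Omp. Against apical cells, higher genes were 40 and 4 at 10 and 200 UMIs and 94 over both P10 libraries. Lower genes were 11 with the 2 times limit, 5 at 50 marker UMIs, 14 as a mean over cells, 135 and 3 at 10 and 200 UMIs, 10 with the epithelial limit and 548 over both P10 libraries.

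Directions that turned, against apical cells in the P10 mutant, were family C receptors at the 5% limit (-0.17), the V1R-mutant list at 10 UMIs (-0.06) and, under the marker limit, that list (-0.26), immediate early genes (0.77), Cntn4 (0.584), Crabp1 (6.00), Gm36028 (0.776) and Vdac3 (0.730). In the control they were Ppib (0.975), Tubb3 (0.961) and Vdac3 (0.856) under the marker limit, and immediate early genes (0.06) and Ppic (1.00) under the epithelial limit. Stbd1 between genotypes turned under the marker limit (0.763). All values under the marker limit rest on 2 control and 8 P10 mutant members. Neuronal transcription factors turned in Omp-containing members by age (0.10) and against apical cells at 3 months (0.29). Those members at 3 months include 3 olfactory-marker cells. Over all members without such cells these medians were -1.35 and -1.70. The limits on olfactory-marker cells, 50 marker UMIs and epithelial genes, and the use of both P10 libraries alone, were chosen after seeing the data. Depth limits most the 3-month values, which rest on 175112 UMIs of 9 cells.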
